A study of Mus musculus with 9 samples.

Results

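The comparison described here sets the olfactory mucosa of mice given dexamethasone daily for 2 weeks (WK2) against that of mice given it for 1 day (D1). Its members are the 3 arrays titled for the 2 week group and the 3 titled for the 1 day group, 6 of the 9 arrays in the series. The other 3 arrays (Ctrl) came from mice given saline for 2 weeks, and their values are shown beside the others as the saline level. All mice were wild-type male C57BL/6, 6 to 8 weeks old, and dexamethasone was injected into the peritoneum at 1 mg/kg. There were 27 mice, 9 per group, and the 3 samples of each group that went onto arrays had been picked for good expression of Omp, the olfactory marker protein of mature olfactory neurons, so Omp itself is no independent finding. D1 and WK2 differ in the number of doses and also in the number of days of injection, of which the saline mice had as many as WK2. Nothing in the labels states that the samples of a group were separate animals. The p-values set the difference between groups against the spread among these samples, and that spread may be technical. The hour at which tissue was taken and the time since the last dose are stated in none of the sources used here.

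Dexamethasone is a synthetic agonist of the glucocorticoid receptor, a transcription factor that is kept in the cytoplasm by chaperones until it binds hormone and then switches genes on and off in the nucleus. Glucocorticoids restrain inflammatory genes, slow bone and collagen formation and act on circadian clocks in peripheral tissues. The clock is a loop in which the activators CLOCK and BMAL1 (the product of Arntl) bind E-box sequences and drive the period and cryptochrome genes, whose products then repress them. The olfactory mucosa holds sensory neurons, their basal progenitors, supporting (sustentacular) cells and mucus glands, on a connective tissue that lies against the bone of the turbinates.

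The defining markers of this tissue were bright on every array. Cyp2g1, a cytochrome P450 of sustentacular cells, had intensities from 373000 to 678000 over the 9 arrays, Omp from 300000 to 540000, and Gap43, of immature neurons, from 48900 to 65500. Median intensity was 1202 to 1447 per array. WK2 replicate 3 stood apart: its mean intensity was 8726, against 7203 to 7627 on the other 8 arrays, and its correlation with the other WK2 arrays across features was 0.981 and 0.977, against 0.989 between those 2. Among the saline arrays Ctrl replicate 2 correlated at 0.986 and 0.984 with the others, against 0.993 between those. Each list median is given with its lowest and highest value over 21 alternative fits, which left out 1 array or changed the processing, and values without WK2 replicate 3 or D1 replicate 2 are added for some lists. Intensities are in arbitrary linear units as deposited, and differences are on the scale of log2(intensity + 50), which understates the change of dim genes.

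Few genes passed the test, and those that did include clock genes, a mucin, a chemokine and a secreted protein of the collagen matrix. The limma test over 23631 features called 22 at an adjusted p under 0.05, which is 0.0931% of those tested. Of these, 7 were higher in WK2 (0.0296%) and 15 were lower (0.0635%). The 7 higher features all carry a gene symbol. Among the 15 lower ones 9 do, and the other 6 have no symbol here and are not described further. In 21 of the 22 the difference was at least 2-fold. At an unadjusted p under 0.05 there were 4538 features (19.2%), of which 2117 were higher (8.96%) and 2421 lower (10.2%) in WK2. The 3 WK2 values lay wholly above the 3 D1 values in 4426 features (18.7%) and wholly below in 2987 (12.6%), and these shares are the background for the counts given below. The difference was above 0 in 14556 features (61.6%), with a median of 0.10 over all features. Quantile normalization gave 76 calls, 15 higher and 61 lower, a higher share of 19.7% against 31.8% in the values as deposited.

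**Figure D1:**
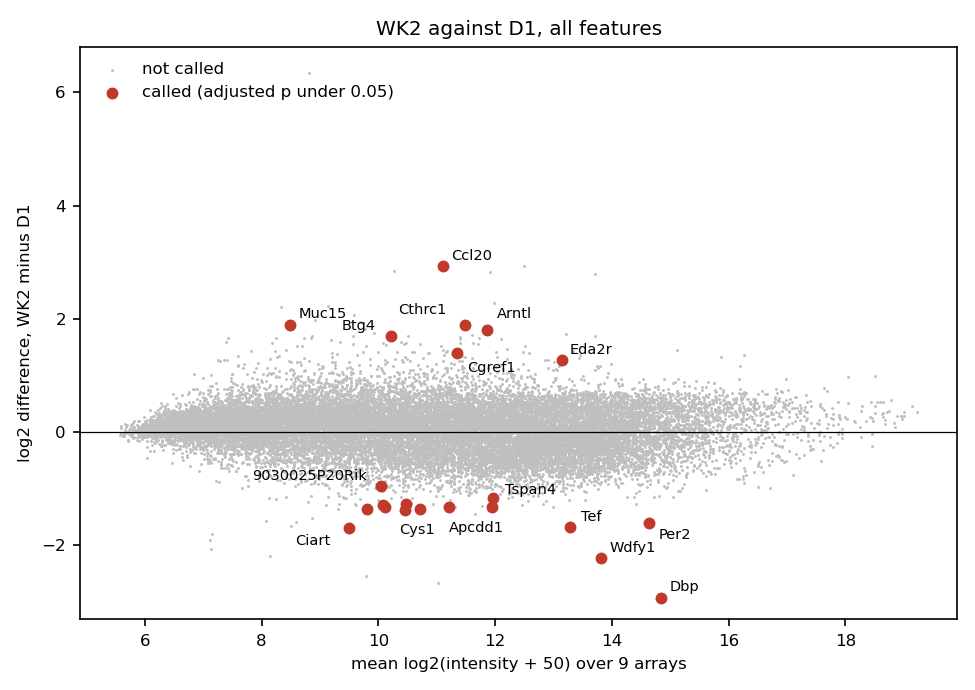
Log2 difference between WK2 and D1 (y axis) against mean log2(intensity + 50) over 9 arrays (x axis) for 23631 features. The 22 features called by limma are red and those with a gene symbol are labelled: Dbp is the lowest of them at -2.92 and Ccl20 the highest at 2.93.

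The count of calls changed when any 1 array was left out, and each such fit has fewer arrays from which to estimate the spread. Without D1 replicate 1, 2 or 3 limma called 1, 2 and 1 features. Without WK2 replicate 1, 2 or 3 it called 6, 10 and 4. Without Ctrl replicate 1, 2 or 3, which enter only through the estimate of spread, it called 10, 27 and 6. Dbp passed in all 9 of these fits. Arntl, Muc15 and Cthrc1 each passed in the 6 fits that kept all D1 arrays and missed the threshold without any 1 D1 array, where the highest adjusted p (limma) was 0.10 for Arntl, 0.0765 for Muc15 and 0.165 for Cthrc1. Per2 and Tef passed in 4 of the 9, Ciart, Wdfy1, Cys1, Btg4 and Ccl20 in 2, Apcdd1, Eda2r and Cgref1 in 1 and Tspan4 in 0.

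Of the 16 called features with a symbol, 5 are on the clock lists. On the activator side Arntl rose. On the repressor side Per2 and Ciart fell, as did the clock-driven transcription factors Dbp and Tef. The hour of tissue collection is unknown. For these 5 genes its part cannot be told apart from that of treatment length. Promoter sequences of 3 of these genes are printed first, because E-boxes are where CLOCK and BMAL1 act. Ciart and Tef show what such a window looks like with E-boxes and Arntl without, and they do not stand for the genes that fell or rose. They are RefSeq windows of mouse build GRCm38.p6, from 250 bases before to 50 bases after a transcription start, 5′ to 3′ on the strand of the gene, with the E-box letters CACGTG in capitals. Ciart lies on the minus strand (chr3:95882179-95882478), and Tef (chr15:81802423-81802722) and Arntl (chr7:113207215-113207514) lie on the plus strand.
Ciart: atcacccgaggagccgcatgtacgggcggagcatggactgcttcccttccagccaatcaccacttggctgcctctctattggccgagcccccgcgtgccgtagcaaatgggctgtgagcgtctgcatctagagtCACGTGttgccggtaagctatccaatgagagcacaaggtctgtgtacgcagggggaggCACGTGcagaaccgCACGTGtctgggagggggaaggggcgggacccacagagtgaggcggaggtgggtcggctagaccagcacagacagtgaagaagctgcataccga
Tef: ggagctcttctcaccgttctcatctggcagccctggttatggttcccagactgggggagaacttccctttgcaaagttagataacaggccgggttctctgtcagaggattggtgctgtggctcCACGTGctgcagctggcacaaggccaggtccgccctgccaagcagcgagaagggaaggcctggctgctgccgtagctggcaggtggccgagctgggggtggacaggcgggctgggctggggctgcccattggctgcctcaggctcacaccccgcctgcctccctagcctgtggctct
Arntl: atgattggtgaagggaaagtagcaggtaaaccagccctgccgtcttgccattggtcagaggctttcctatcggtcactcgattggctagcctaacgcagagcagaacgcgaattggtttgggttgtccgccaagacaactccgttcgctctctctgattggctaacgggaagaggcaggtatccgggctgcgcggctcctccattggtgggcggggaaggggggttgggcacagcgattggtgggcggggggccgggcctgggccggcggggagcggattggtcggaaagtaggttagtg
The Ciart window holds 3 E-boxes, the Tef window 1 and the Arntl window 0. CACGTG reads the same on both strands and is found in 7.15% of the 32851 promoters in the table. Of 27 genes on the core clock and clock output lists, 23 have 33 promoter windows there, and 7 of the 33, belonging to 6 genes, hold an E-box. Dbp has 1 window with 0 E-boxes. Among all called genes, 5 of those that rose have a window there and 2 of these (Cgref1 and Eda2r) hold an E-box, while 5 that fell have a window and 3 (Ciart, Tef and Tspan4) hold one. The D-box TTANGTAA, which Dbp and Tef products bind, was in 1 of the 33 windows (Per3) against 2.32% of all promoters, and a palindromic glucocorticoid response element was in 0 against 0.475%, with both strands searched. A match describes letters in this window only.

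Dbp encodes a PAR bZIP transcription factor whose RNA is a strong rhythmic output of the clock. Its intensities were 65960, 61280 and 81280 in D1 and 9885, 7005 and 10900 in WK2. The 3 saline arrays read 38070, 33520 and 51270, so they lay between the treated groups, below every D1 array and above every WK2 array. Mean intensity was 69510 ± 10460 (SD, n = 3) in D1 and 9263 ± 2020 in WK2. The difference was -2.92 ± 0.22 (SE; limma adjusted p = 0.00279), or 7.54-fold lower, and lay between -3.04 and -2.73 when any 1 array was left out.

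Tef, a close relative of Dbp, read 13960, 13940 and 16850 in D1 and 5111, 5087 and 3711 in WK2. Its saline values of 12010, 16680 and 14720 spanned those of D1, and the difference was -1.68 ± 0.19 (limma adjusted p = 0.018). Hlf, the other member of this small family, read 21200, 15690 and 19020 in D1 against 11060, 8338 and 10990 in WK2 and did not pass (-0.88 ± 0.22, limma adjusted p = 0.137). In all of these genes the D1 and WK2 values were fully separate.

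Per2 encodes a period repressor. Its intensities were 37340, 33220 and 39660 in D1 and 14810, 10130 and 11750 in WK2, a difference of -1.60 ± 0.18 (limma adjusted p = 0.018). The saline arrays, at 38050, 31290 and 40750, stood at the D1 level. Ciart, a clock-associated repressor, read 1017, 1175 and 1304 in D1, 296, 462 and 246 in WK2 and 657, 863 and 857 in saline, a difference of -1.69 ± 0.22 (limma adjusted p = 0.0277). Arntl moved the other way. It read 2165, 2134 and 2062 in D1, 7276, 9584 and 6116 in WK2 and 3273, 3097 and 2775 in saline, so D1 lay below and WK2 above every saline array. Its difference was 1.80 ± 0.17 (limma adjusted p = 0.00967), or 3.49-fold.

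**Figure D2:**
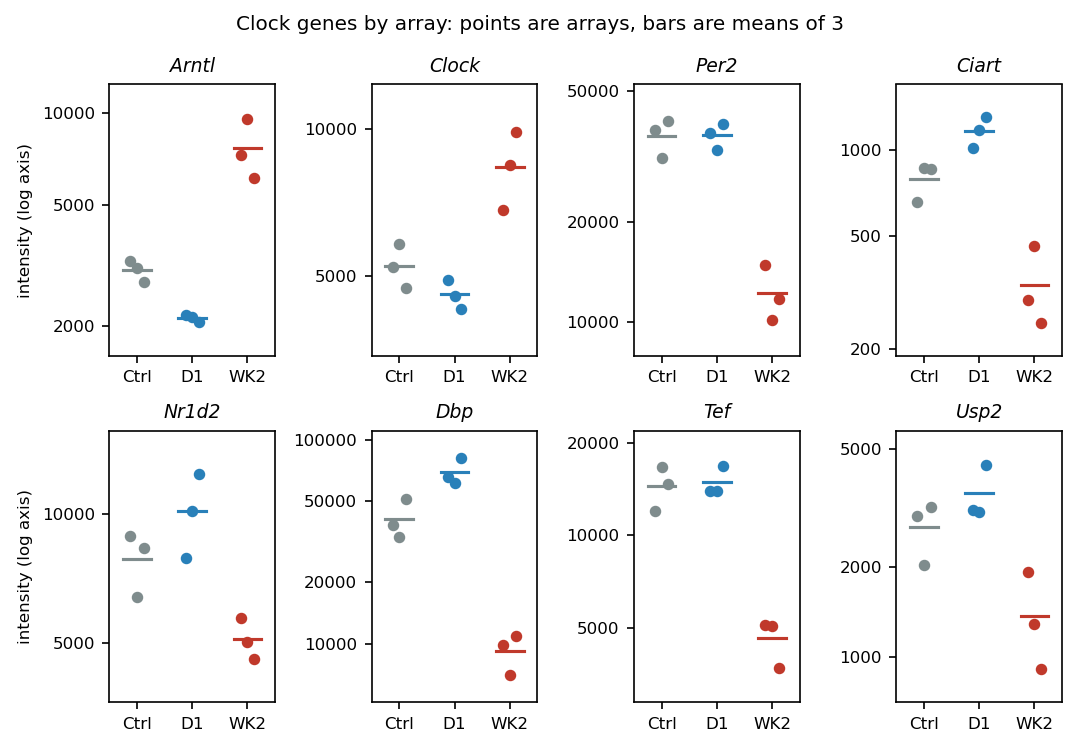
Intensity (log axis) of 8 clock genes on each array (points) with the mean of 3 (bars) in Ctrl, D1 and WK2. Arntl and Clock are highest in WK2 and the other 6 are lowest there, with no overlap between D1 and WK2 in any of the 8.

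The other clock genes did not pass. Clock, the partner of Arntl, read 4909, 4536 and 4281 in D1 and 6822, 8445 and 9874 in WK2 (0.85 ± 0.17, limma adjusted p = 0.107). Its paralog Npas2 differed by 0.67, but WK2 replicate 3, at 2076, lay among the D1 values of 1889 to 2255. The nuclear receptor Nr1d2, which represses Arntl, read 7890, 10160 and 12420 in D1 and 5733, 5035 and 4578 in WK2 (-0.96 ± 0.20, limma adjusted p = 0.116), while its relative Nr1d1 differed by -0.13 ± 0.21. Cry2 differed by -0.90, Per1 by -0.80 and Cry1 by 0.06. The 2 probes of Per3 disagreed, at -0.01 for the brighter and -2.25 for the dimmer. Nfil3, a repressor of the sites that Dbp activates, differed by 0.68, and Usp2, a rhythmic deubiquitinase, by -1.37 with separate groups. Over the 16 measured members of the core clock list the median was -0.42 (-0.57 to -0.20), and -0.24 without WK2 replicate 3. The WK2 values lay wholly above D1 in 2 of the 16 and wholly below in 5, against a background of 18.7% and 12.6%. Over the 11 output factors the median was -0.30 (-0.47 to -0.23), with 1 wholly above and 4 wholly below.

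Of 36 textbook targets of the glucocorticoid receptor none passed, 17 were above 0 and 19 below, and the median was -0.01 (-0.16 to 0.14). Zbtb16 read 369, 903 and 982 in D1 and 461, 289 and 283 in WK2 (-0.95 ± 0.36, limma adjusted p = 0.216), and 2851, 1457 and 2035 in saline, above every treated array. Fkbp5, a co-chaperone of the receptor, read 2717, 3572 and 3626 in D1 and 2587, 2491 and 1096 in WK2 (-0.75 ± 0.29, limma adjusted p = 0.221), and its 3 saline values, 4432 to 5381, also lay above every treated array. Tsc22d3, which encodes the anti-inflammatory protein GILZ, ranged from 19730 to 33280 in D1 and from 22710 to 45150 in WK2, with overlap. Dusp1, a phosphatase that switches off MAP kinases, read 23020, 17770 and 18380 in D1 and 36140, 28340 and 25610 in WK2 (0.60 ± 0.17, limma adjusted p = 0.156). Sgk1 differed by 0.23 ± 0.23, the receptor gene Nr3c1 by 0.17 ± 0.21, and Hsd11b1, which regenerates active corticosteroid, by 0.88 ± 0.29. None of these passed.

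Cthrc1, a secreted protein with a collagen triple helix repeat, rose. Several other genes of the collagen matrix had D1 values below both WK2 and saline, without passing the test of WK2 against D1. The position of D1 against saline is given as values only, without a test. Cthrc1 read 1303, 1676 and 1303 in D1, 4610, 4607 and 7446 in WK2 and 2719, 2967 and 2975 in saline, a difference of 1.90 ± 0.20 (limma adjusted p = 0.018), or 3.72-fold. D1 lay below and WK2 above all saline arrays. Thbs2, a matricellular thrombospondin, had the same order of groups, with 1825, 1757 and 1795 in D1 and 4022, 3800 and 6595 in WK2, and narrowly missed the threshold (1.35 ± 0.21, limma adjusted p = 0.0538). Lox, which cross-links collagen, read 2014, 2152 and 2212 in D1, 4119, 3865 and 3780 in WK2 and 4513, 3128 and 3779 in saline, so WK2 stood at the saline level (0.87 ± 0.16, limma adjusted p = 0.0967). Col5a2, a fibril-forming collagen, read 2685, 3722 and 3340 in D1 and 7402, 5485 and 6906 in WK2 (1.01 ± 0.18, limma adjusted p = 0.0885).

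Larger structural genes of the same list had separate groups too without passing. Col1a2, a chain of collagen I, read 71470, 79010 and 97340 in D1, 167900, 118500 and 135100 in WK2 and 136700, 135500 and 139500 in saline. Postn, Lum, Serpinh1 and Tnc differed by 1.16, 1.33, 0.79 and 0.71. Col1a1, the partner chain of Col1a2, differed by -0.40 ± 0.28, on a probe far dimmer than that of Col1a2 (1210 to 2870 over the 9 arrays). Loxl1 differed by -0.84 at its brighter probe and by -0.13 at the other. Of the 38 measured members of the fibrillar collagen list, 1 passed, 27 were above 0, and WK2 lay wholly above D1 in 12 and wholly below in 3. The list median was 0.15 (0.11 to 0.23), against 0.10 over all features.

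Bone genes had values in both directions, and none passed. Ibsp, bone sialoprotein, read 43620, 46430 and 47650 in D1, 117200, 75920 and 185700 in WK2 and 94770, 77240 and 99630 in saline (1.36 ± 0.28, limma adjusted p = 0.111). Ifitm5, a membrane protein of osteoblasts, read 3546, 3433 and 3035 in D1 and 8386, 6031 and 14040 in WK2 (1.41 ± 0.26, limma adjusted p = 0.102). Panx3, a channel of bone and cartilage cells, differed by 1.16 and Ostn, a peptide secreted by bone, by 1.24. Dmp1, of osteocytes, went the other way, from 2907, 3657 and 3778 in D1 to 1938, 1321 and 1493 in WK2 (-1.11 ± 0.23). The osteoblast list had 16 measured members, a median of 0.25 (0.09 to 0.29), 5 wholly above D1 and 2 wholly below. Of its defining markers Ibsp differed by 1.36, Bglap by 0.34, Sp7 by -0.16 and Col1a1 by -0.40. None of them passed, and the mean list level per array was 11.86 to 11.94 in D1 and 11.98 to 12.30 in WK2 on the log2 scale. Their part in the matrix result was not tested. In whole tissue, fewer cells of a type and less RNA per cell cannot be told apart.

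Basement membrane and matrix regulator genes had a median of -0.18 over 37 measured members (-0.22 to -0.10, the latter without WK2 replicate 2 or 3), and WK2 lay wholly below D1 in 8 and wholly above in 2. Timp3, an inhibitor of metalloproteinases, read 42880, 45090 and 39820 in D1, 18150, 17240 and 23090 in WK2 and 36730, 55930 and 48690 in saline (-1.14 ± 0.19, limma adjusted p = 0.0704). Col18a1, the source of endostatin, differed by -0.91, Agrn, the proteoglycan agrin, by -0.86 and Fbln2 by -0.79, all with separate groups. Cartilage genes had a median of 0.09 (-0.03 to 0.13), with 5 of 24 wholly above and 5 wholly below.

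**Figure D3:**
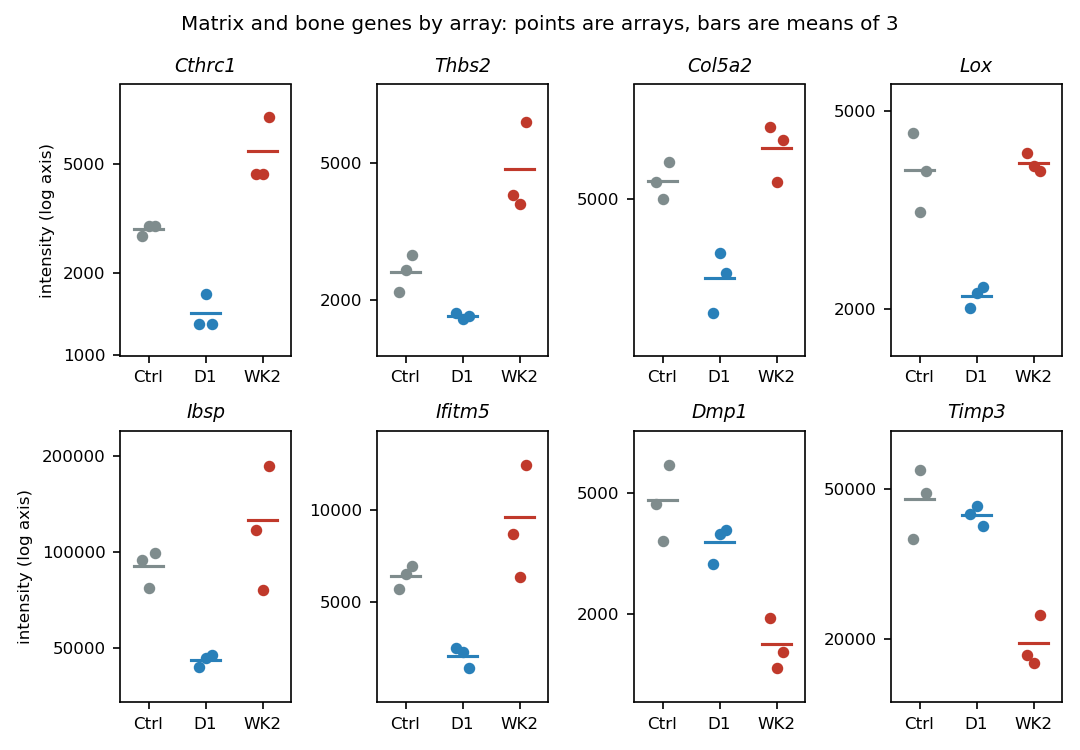
Intensity (log axis) of 8 matrix and bone genes on each array (points) with the mean of 3 (bars). In the first 6 panels D1 is the lowest group, with no overlap with WK2, and in Dmp1 and Timp3 WK2 is the lowest.

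Among chemokines Ccl20 rose. Ccl20, which attracts CCR6-bearing lymphocytes and dendritic cells to epithelia, read 777, 1772 and 600 in D1, 11480, 4532 and 8102 in WK2 and 1580, 1212 and 1320 in saline. The lowest WK2 value was above the highest D1 value, and the difference was 2.93 ± 0.40 (limma adjusted p = 0.0328), or 7.61-fold. Cxcl1, a neutrophil attractant, read 253, 445 and 268 in D1, 2712, 838 and 1970 in WK2 and 243, 251 and 227 in saline (2.23 ± 0.36, limma adjusted p = 0.0645). Its paralog Cxcl2 differed by 1.29 but overlapped, with 298 in D1 replicate 2 and 277 in WK2 replicate 2.

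Ccl17, an attractant of CCR4-bearing T cells, read 433, 419 and 566 in D1 and 1717, 839 and 1633 in WK2 (1.42 ± 0.30, limma adjusted p = 0.116). Ccl11, eotaxin, read 1527, 1387 and 879 in D1, 2673, 2709 and 2474 in WK2 and 637, 1026 and 541 in saline (1.06 ± 0.25, limma adjusted p = 0.129). Cxcl12, which stromal cells make constitutively, went the other way, from 33660, 27880 and 25090 in D1 to 18850, 17670 and 15880 in WK2 (-0.72 ± 0.22). Of 31 chemokines measured 1 passed, 5 lay wholly above D1 and 1 wholly below, against 18.7% and 12.6% of all features. Of the 31, 23 were above 0, with a median of 0.36. That median was 0.55 without D1 replicate 2 and 0.16 without the dimmest 50% of features, the highest and lowest over the 21 fits. Among cytokines and mediators the median was 0.18 over 38 genes (0.12 to 0.23, the former without WK2 replicate 3), 7 were wholly above and 2 wholly below, and none passed. In neither list did the genes wholly above D1 exceed the share over all features. Il33, an epithelial alarmin, read 58690, 58210 and 64180 in D1 and 87100, 82380 and 103200 in WK2 (0.59 ± 0.14, limma adjusted p = 0.131).

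The lists of white cells held no called gene. Of 25 neutrophil genes 0 lay wholly above or below D1, and their median was -0.29 (-0.64 to 0.29, and -0.16 without WK2 replicate 3). D1 replicate 2 carried the highest neutrophil level of all arrays (12.98, against 10.68 to 12.30 on the others, mean log2), and without it the median was 0.29. T and NK genes had a median of 0.02 (-0.12 to 0.20), and B lineage genes also 0.02 (-0.21 to 0.21). Macrophage and dendritic genes had a median of 0.11 (0.02 to 0.31). The highest values of these 3 lists were those without D1 replicate 2. MHC class II genes had a median of 0.28 (0.07 to 0.39), and 0.07 was the value without WK2 replicate 3.

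Several genes outside the lists described above passed. Muc15, a membrane-bound mucin, read 152, 167 and 167 in D1, 776, 671 and 788 in WK2 and 280, 250 and 168 in saline. The difference was 1.90 ± 0.17 (limma adjusted p = 0.00813), or 3.74-fold, and Muc15 also passed in a fit of the D1 and WK2 arrays alone, where the only other call was Dbp. None of the other mucins passed, and over all 14 measured the median was 0.01 (-0.12 to 0.21). Muc16 differed by 0.52, and the secreted gel-forming Muc2 and Muc5b each differed by -0.63. The second probe of Muc5b, which was dimmer, differed by -1.13. Eda2r, a receptor for an ectodysplasin isoform, read 7025, 7311 and 5773 in D1 and 17390, 14440 and 16610 in WK2, with saline at the D1 level (1.27 ± 0.16, limma adjusted p = 0.0277). Btg4, of the BTG antiproliferative family, rose by 1.70 and Cgref1, a cell growth regulator with EF hands, by 1.40. Car3, a carbonic anhydrase of muscle and fat, read 7642, 7067 and 8593 in D1 and 26150, 17300 and 35270 in WK2 but did not pass (1.69 ± 0.26, limma adjusted p = 0.053).

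On the lower side Wdfy1, an endosomal FYVE protein, read 21060, 24140 and 27940 in D1 and 5974, 5788 and 3861 in WK2 (-2.23 ± 0.28, limma adjusted p = 0.0277). Its second probe, which was dimmer, differed by -0.62. Cys1, cystin of the primary cilium, fell by 1.35 on the log2 scale and its second probe differed by -1.20. The tetraspanin Tspan4 fell by 1.16 and the clone-named gene 9030025P20Rik, chosen after its value was seen, by 0.95. With clone-named genes left out (4933434E20Rik, at -1.02, was among them), the 4 lower genes of smallest p beyond these did not pass: Mtfp1, a mitochondrial fission protein, at -1.15, Nbl1, a BMP antagonist, at -1.04, Ch25h, cholesterol 25-hydroxylase, at -1.03 and Ppp1r12b, a myosin phosphatase subunit, with 2334 ± 311.2 (SD, n = 3) in D1 and 1137 ± 90.6 in WK2. The second probe of Ppp1r12b, which was dimmer, differed by -0.02, against -1.0 at the brighter. Prss35 (1.15) and Slc25a34 (1.05) did not pass on the higher side. Prss35, a serine protease family member, stood at 269 ± 46.7 (SD, n = 3) in D1, 656 ± 98.1 in WK2 and 630 ± 70.9 in saline.

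Apcdd1, a membrane inhibitor of Wnt signalling and itself a Wnt target, fell from 3099, 2635 and 3226 in D1 to 1361, 1206 and 945 in WK2, with saline at 3397, 3450 and 3984 (-1.32 ± 0.17, limma adjusted p = 0.0277). Of 27 Wnt feedback and target genes it was the 1 that passed, 9 lay wholly below D1 and 1 wholly above, and the median was -0.15 (-0.26 to -0.12, the former under quantile normalization). Wnt4 differed by -0.74, Lef1, a transcription factor of the pathway, by -0.76, and the agonist Rspo1 by -0.68, all with separate groups. Axin2, a general feedback gene of the pathway, differed by -0.40 ± 0.18.

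**Figure D4:**
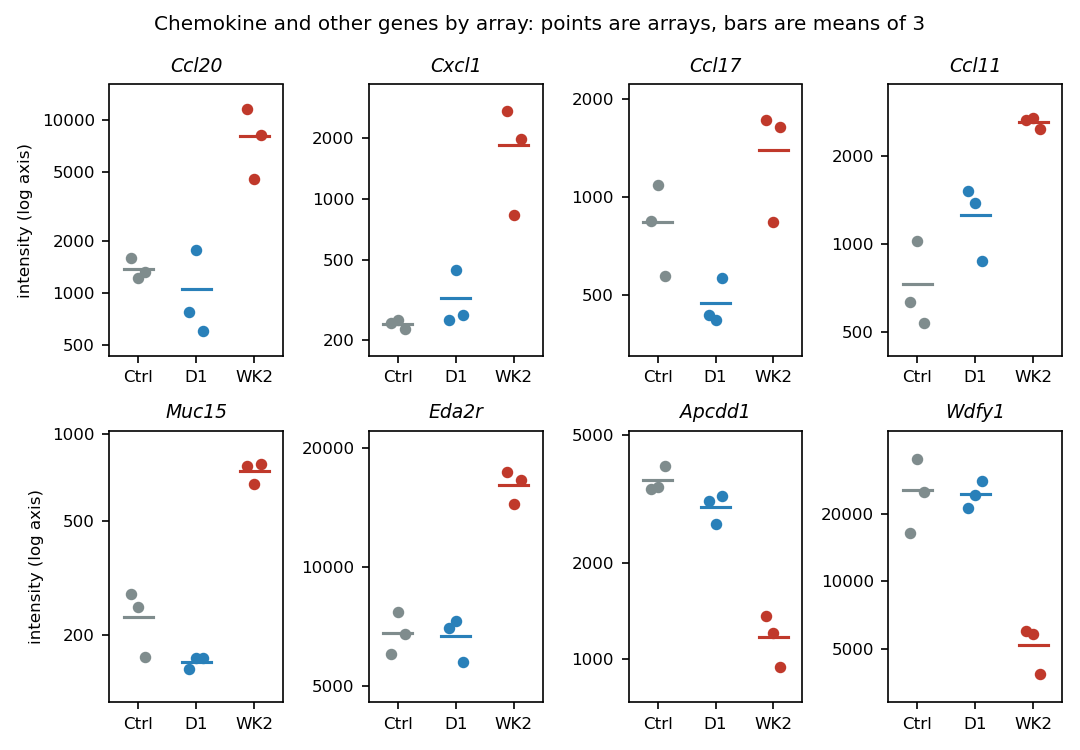
Intensity (log axis) of 4 chemokines and 4 other genes on each array (points) with the mean of 3 (bars). Ccl20, Cxcl1, Ccl17, Ccl11, Muc15 and Eda2r are higher in WK2 than in D1 on every array, and Apcdd1 and Wdfy1 are lower on every array.

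Endothelial and vessel wall genes had a median of -0.24 (-0.35 to -0.18) over 24, with 8 wholly below D1, 0 wholly above and none past the threshold. Flt1, a VEGF receptor, read 2080, 2360 and 2504 in D1 and 1331, 1201 and 1142 in WK2 (-0.89 ± 0.17, limma adjusted p = 0.107). Rasip1, which is needed for vessel lumens, differed by -1.05, Eng by -0.75 and Robo4 by -0.67. Of the defining markers Pecam1 differed by -0.10, Cdh5 by -0.41 and Kdr by -0.28. The mean list level was 11.99 to 12.16 in D1 and 11.69 to 11.89 in WK2 (log2 scale), without overlap.

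Of 27 genes of immature olfactory neurons measured, 21 were below 0, 11 lay wholly below D1 and 1 wholly above, and the median was -0.22 (-0.33 to -0.15), but none passed. Crmp1, a growth cone phosphoprotein, read 10460, 10560 and 12140 in D1 and 6993, 5416 and 2167 in WK2 (-1.33 ± 0.35, limma adjusted p = 0.139). Dpysl5, of the same family, read 16190, 11820 and 15020 in D1 and 8856, 7212 and 5188 in WK2 (-1.03 ± 0.21, limma adjusted p = 0.116). Of the defining markers other than Dpysl5, Gap43 differed by -0.26 ± 0.13, Dcx by -0.21, Stmn2 by -0.12 and Gng8 by 0.05. Mature neuron genes had a median of -0.14 (-0.26 to -0.03, the latter without WK2 replicate 3), with 14 of 31 above 0, 5 wholly above and 7 wholly below. Omp, used to pick the samples, differed by 0.33 ± 0.19. Of the other defining markers, which serve odour transduction or receptor transport, Cnga2 differed by 0.43, Ano2 by 0.46, Rtp1 by 0.30 and Stoml3 by 0.12 (-0.08 under quantile normalization), while Adcy3 differed by -0.46 and Gnal by -0.23. Ebf4, a transcription factor of these neurons, differed by -0.85, and none of these passed.

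In the basal layers the horizontal basal cell list had a median of 0.31 (0.22 to 0.47), with 6 of 17 wholly above and 2 wholly below. Krt14 read 15440, 17670 and 16710 in D1 and 25350, 23720 and 31200 in WK2 (0.68 ± 0.15, limma adjusted p = 0.122), Krt5 differed by 0.30 ± 0.20, and Cav1, caveolin 1, by -0.92. Globose basal and neurogenic genes had a median of -0.14 (-0.22 to -0.07, the former without WK2 replicate 3), with 5 of 16 above 0, 1 wholly above and 4 wholly below. Hes1, a Notch target, differed by -0.86, and of the defining markers Neurog1 differed by 0.34 and Kit by -0.67. None of these passed. Proliferation genes had a median of 0.10 (0.01 to 0.21), against 0.10 over all features. Mki67 differed by -0.64 at its brighter probe and 0.41 at the other, and Top2a by 0.78, and neither passed. Sustentacular genes had a median of 0.29 (0.08 to 0.34) with 25 of 28 above 0; it was 0.08 under quantile normalization and 0.15 without WK2 replicate 3. Cyp2g1 differed by 0.28 ± 0.16, and by -0.04 under quantile normalization and under cyclic loess. Of the other defining markers of these cells Ermn differed by 0.48, Gsta4 by 0.56 and the mucin Muc2 by -0.63. The list member Aox2 differed by -0.70, and none of these passed.

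Among retinoic acid genes, Stra6, the cell-surface receptor that takes up retinol, read 1593, 1615 and 2146 in D1 and 810, 800 and 682 in WK2 (-1.16 ± 0.18, limma adjusted p = 0.0538). Rdh10, which starts the synthesis of retinoic acid, differed by -0.62. Cyp26a1, which degrades it, read 246, 114 and 178 in D1 and 895, 375 and 489 in WK2 (1.43 ± 0.30, limma adjusted p = 0.116). None passed, and of the 23 genes 5 were wholly above and 5 wholly below. The list median was 0.28 (-0.22 to 0.39), and it was below 0 in 1 of the 21 fits.

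The lists of ribosome, mitochondrion and chaperone genes had medians above that of all features. Cytosolic ribosomal protein genes had a median of 0.44 (0.28 to 0.50, the former without WK2 replicate 3), and 23 of 45 lay wholly above D1 and 0 below. Oxidative phosphorylation genes had a median of 0.35 (0.15 to 0.45, the former without that array), with 30 of 72 wholly above and 0 below. The mean level of the latter was 14.70 on WK2 replicate 3 and 14.27 and 14.14 on the other WK2 arrays, against 13.95 to 14.15 in D1, so 1 WK2 array lay within the D1 range. Chaperone genes had a median of 0.22 (0.18 to 0.28) with 11 of 29 wholly above and 0 below. Hspa5, the chaperone BiP of the endoplasmic reticulum, read 56220, 60390 and 60830 in D1 and 90960, 113900 and 141400 in WK2 (0.94 ± 0.19, limma adjusted p = 0.111), and Hsp90aa1, which holds the glucocorticoid receptor ready for hormone, differed by 0.65. Members of these 3 lists did not pass the limma test.

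Olfactory receptor genes, each active in few neurons, were dim. Of 543 measured, 487 were above 0, 141 lay wholly above D1 and 8 wholly below, and the median was 0.32 (0.17 to 0.42). The mean level per array was 9.18 to 9.22 in D1 and 9.35 to 9.71 in WK2 (log2 scale), and 9.05 to 9.43 in saline. None passed, and the median was 0.25 under quantile normalization and 0.21 without WK2 replicate 3. Vomeronasal receptors, which belong to another organ, had a median of 0.24 (0.09 to 0.34, and 0.12 under quantile normalization) with 11 of 46 wholly above and 0 below. Taste and trace amine receptors had 0.24 (0.09 to 0.41, and 0.14 under quantile normalization) with 18 of 44 wholly above and 0 below. The part that dim signal common to these probes has in the olfactory receptor shift was not tested. When all features were ranked by mean level and split into 4 sets of 5907 or 5908, the medians from the dimmest set up were 0.13, 0.14, 0.01 and 0.04, and the mean levels of the olfactory receptor list lay in the range of the next dimmest set (8.36 to 10.58).

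**Figure D5:**
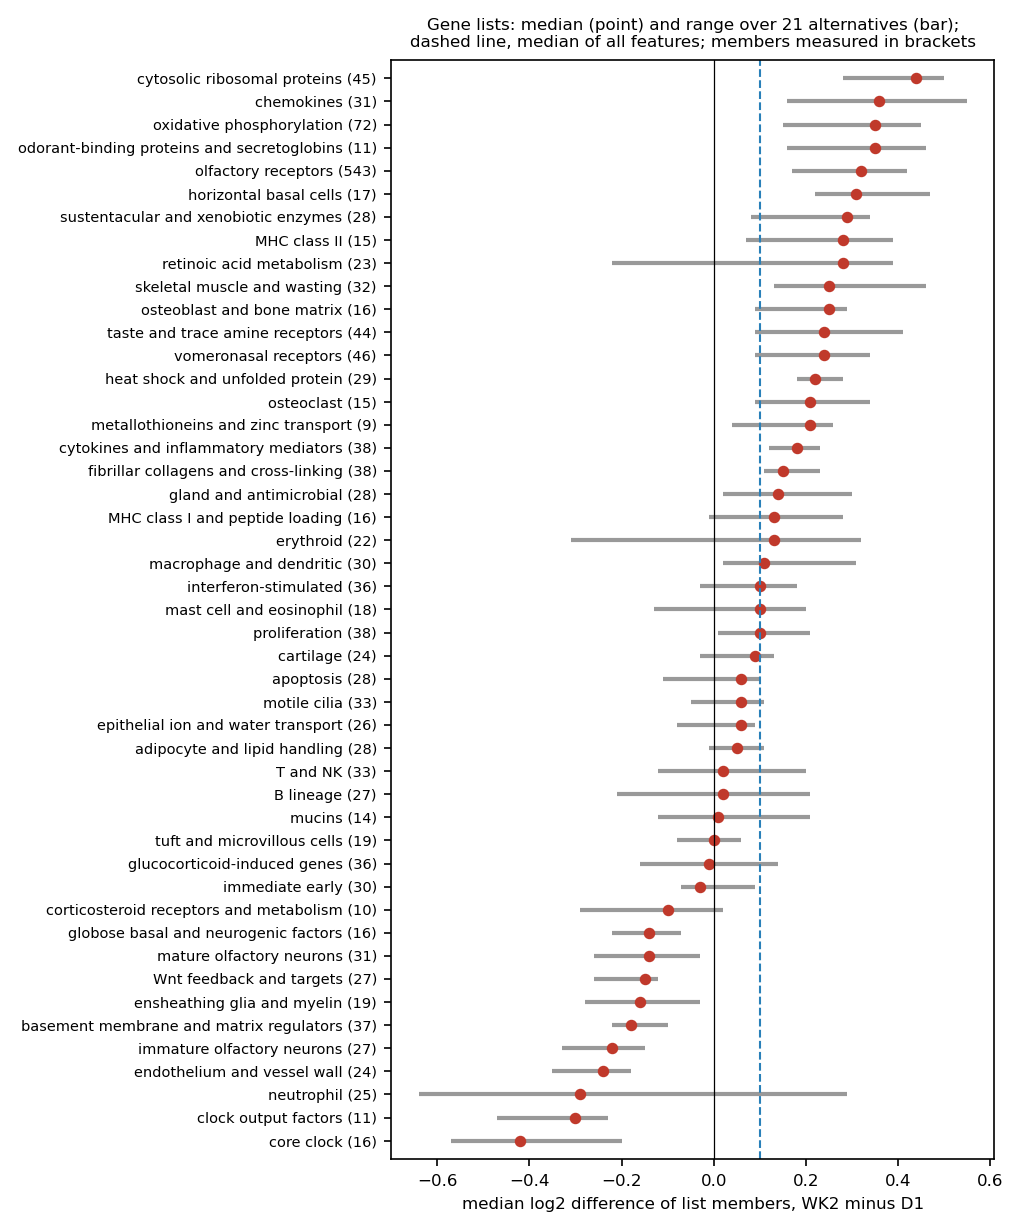
Median log2 difference between WK2 and D1 (x axis) of the measured members of 47 gene lists (y axis, with the number measured). Points are the values as reported, bars the range over 21 alternative fits, and the dashed line the median of all features at 0.10: core clock is lowest at -0.42 and cytosolic ribosomal proteins highest at 0.44.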

How the data were processed

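Total RNA of the olfactory mucosa was labelled with Cy5 and hybridised to 1-colour arrays, per the labels' protocols. The authors deposited 1 table of linear intensity values, 26423 probes by 9 arrays. The scanner, the software and the target of any scaling are stated in none of the sources used here. Array medians differed by 0.268 on the log2 scale, so the values were used as deposited, with log2(intensity + 50) computed from them. Gene symbols came from GEO's platform annotation, updated by gene ID through RefSeq (21876 with 1 symbol, 4547 with none). The probe of highest mean stood for a gene, leaving 23631 features. limma 3.58.1 in R 4.3.3 was fitted over all 9 arrays with a mean per group (lmFit, contrasts.fit, eBayes) and p-values were adjusted by Benjamini-Hochberg over all features. The smallest p an exact permutation test of 3 against 3 can give is 0.10.

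The groups, gene lists and rules were chosen with earlier results of these data known. Named genes are the 12 largest differences in each direction past the threshold with separate groups, filled by smallest p, leaving out chemoreceptors, predicted or clone-named genes and immune receptor segments, plus up to 4 members of smallest p from each list described and a set of 15 fixed genes. Other genes, such as Clock, Nr1d2, Col1a2, Postn, Lum, Cxcl12, Panx3 and the defining markers of neurons, basal and sustentacular cells, were added with their values in view. Precision is limited by having 3 arrays a group.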

Additional observations from a re-analysis of the deposited data

How the results depend on the processing

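The count of features called was 22. It was 76 under quantile normalization, 49 under median centring, 51 under cyclic loess, 37 without the dimmest 25% of features, 134 with array weights and 69 at an adjusted p under 0.1. It was 13 with a pseudocount of 500 and 2 in a fit of the D1 and WK2 arrays only (Dbp and Muc15). Leaving out 1 array at a time gave 1 to 27. A pseudocount of 16, leaving out the dimmest 50%, averaging a gene's probes, robust moderation with a trend and a minimum fold of 2 stayed within 1.5 times of 22. The replicate block gave 8 calls, 6 of them among the 22. Deviations from group means correlated at -0.28 to 0.14 between samples of the same number, and D1 replicate 3 correlated best with WK2 replicate 2 (0.31), so the numbers were not used as pairs. For 114 of the genes named, over 21 fits and 2 thresholds, 16 values changed sign, all of genes that did not pass. Cyp2g1 was -0.04 under quantile normalization and -0.04 under cyclic loess, Stoml3 was -0.08 and -0.03 there, and Sp7 was 0.02 with array weights. Leaving out 1 array gave -0.44 to 0.15 for Sp7, -0.24 to 0.34 for Stoml3, -0.05 to 0.18 for Cry1, -0.21 to 0.01 for Nr1d1, -0.03 to 0.35 for Nr3c1 and -0.15 to 0.13 for Per3. The cause of these changes was not tested. A called gene lost its call in 131 values and an uncalled one gained a call in 104. List medians moved by more than the spread between arrays in 66 values and by less in 921. No detection calls are given, so signal over background is unknown.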

Other observations

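Car6, Wfdc12 and Scgb2b27, which encode secreted proteins, had a large spread within both groups. Car6, a carbonic anhydrase of saliva and mucus, read 1469, 1663 and 6508 in D1 and 23740, 76290 and 3359 in WK2. Wfdc12, a protease inhibitor, read 96, 546 and 4147 in D1 and 6286, 33530 and 584 in WK2. Scgb2b27, a secretoglobin, read 4978, 2361 and 13390 in D1 and 37120, 93510 and 15770 in WK2. In all 3 genes D1 replicate 3 was the highest of its group and WK2 replicate 3 the lowest of its group, and for Car6 and Wfdc12 the groups overlapped. None passed the limma test, with adjusted p of 0.185, 0.284 and 0.143. Myog, a muscle transcription factor, and Fas, a death receptor, had the same order, with 3187 and 3318 on D1 replicate 3 and 10080 and 7018 on WK2 replicate 2 as the highest values of their groups. The 28 measured gland and antimicrobial genes did not show this order: their mean level (log2 scale) was 14.00, 14.88 and 14.29 in D1 and 14.49, 14.50 and 14.41 in WK2. The 11 odorant-binding and secretoglobin genes, which include Scgb2b27, were at 15.68, 14.83 and 15.09 in D1 and 16.26, 15.43 and 15.53 in WK2. Genes in this paragraph other than Scgb2b27 and Fas were picked with their values in view.

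The largest difference of all features, 6.34 for Top2b, came from a probe that was near 0 on some arrays and bright on others: 32450, 1.37 and 6.74 in saline, 0, -2.19 and 1.18 in D1 and 38410, -1.34 and 35010 in WK2. Its adjusted p was 0.257 (limma). There were 14 features with 1 array at least 3 above the other 8 on the log2 scale and 4 with 1 array at least 3 below them. D1 replicate 1 held 5 of the 14.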
